A study of Mus musculus with 8 samples.

Results

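Collagen VI and the collagens that sit on or between fibrils were examined in RNA of hepatic stellate cells, mesenchymal cells of the liver that store vitamin A. The members were Col6a1, Col6a2, Col6a3, Col12a1, Col14a1, Col15a1, Col16a1 and Col8a1, and their rows were looked up by mouse Ensembl identifier. Of these 8 genes, 1 was in the 1933 gene rows shared by the 8 count tables as used here: Col6a3 (ENSMUSG00000048126), on chromosome 1. The other 7 lie on other chromosomes and were not analysed here, so the results describe Col6a3 and not the family.

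The cells came, per the labels, from livers of male mice with steatohepatitis (MASH) that were fed a Western diet (20% protein, 21% fat and 50% carbohydrate) for 20 weeks from 4 weeks of age and analysed in week 24. Mice labelled as lacking the ubiquitin ligase AREL1 in stellate cells (AREL1HSC-KO, here KO) gave 4 libraries, and mice with the floxed gene (AREL1fl/fl, here fl/fl) gave the other 4. The sources used here do not name the recombinase line behind the knockout. Groups were taken from the titles, because the genotype field of 3 KO libraries names the gene with a different digit. Whether the libraries stem from different mice is not labelled, so the spread behind the p-values may be technical. Arel1 and the 13 listed stellate cell markers were outside the rows analysed, so neither the knockout nor the labelled cell type was checked.

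Collagen VI is built from 3 different chains that fold together into a heterotrimer and assemble into beaded microfilaments close to cell surfaces. Col6a1 and Col6a2 encode the shorter chains, and Col6a3 encodes the long alpha-3 chain, whose cleaved end fragment is known as endotrophin. In fibrotic liver, collagen VI is deposited in scar tissue and along the sinusoids, and fibroblast-like cells are a main source. Collagens XII, XIV and XVI attach to fibrils through interrupted triple helices, while collagen XV lies at basement membranes and collagen VIII forms short-chain networks.

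Gene-assigned reads numbered 19271004 to 25165289 in the KO libraries and 17619387 to 19663030 in the fl/fl libraries. Levels are in CPM, with the gene-assigned reads of a library times its TMM factor as the total. Of all reads, 1.44% to 1.58% were unmapped in the KO libraries and 1.04% to 1.19% in the fl/fl libraries. Reads that met no gene made up 3.928% to 4.139% in KO and 4.298% to 4.343% in fl/fl, and the TMM factors were 1.00 to 1.02 in KO and 0.980 to 0.996 in fl/fl. These 3 measures separated the groups (two-sided exact permutation p = 0.0286, the smallest that 4 against 4 can give, and 0.0667 adjusted over 7 library measures), and the part of the unmapped and no-gene shares in the results below was not tested. Without the TMM factors, on library totals alone, the log2 fold change of Col6a3 described below was -0.70 (edgeR adjusted p = 1.34e-07). No batch or date is labelled, so genotype and any batch aligned with it cannot be told apart. The fl/fl library of replicate 4 differed from the rest of its group (chi-square per degree of freedom of 3.37 to 3.47, against 1.39 to 1.86 among the other fl/fl libraries), and the Col6a3 results are given with and without it.

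Col6a3 was lower in every KO library than in every fl/fl library. The 4 KO libraries held 318, 320, 266 and 249 Col6a3 reads, in replicate order, and the 4 fl/fl libraries held 433, 401, 394 and 294. As levels, these were 13.01, 12.47, 12.91 and 12.77 CPM in KO, against 22.28, 22.86, 22.78 and 16.83 CPM in fl/fl. The KO libraries lay within a narrow band, and the lowest fl/fl library, replicate 4, was still above the highest KO library. Col6a3 averaged 12.8 ± 0.236 CPM in KO and 21.2 ± 2.92 CPM in fl/fl (SD, n = 4 each), a log2 fold change of -0.73 (SE 0.079, edgeR quasi-likelihood adjusted p = 1.03e-07), or 39.7% less. In bulk RNA, fewer cells that express the gene and less of its RNA per cell cannot be told apart.

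The genes tested come from the 1933 shared rows, which hold 3.20% to 3.28% of gene-assigned reads. The 1830 of these rows with an entry in the gene annotation used here all lie on chromosome 1. The shares and ranks below therefore do not describe the whole transcriptome. Among all 420 genes tested, 158 (37.6%) passed the same threshold, 77 higher and 81 lower in KO, and 19.3% of the genes tested were called lower. With upper-quartile scaling the split was 120 higher and 52 lower, and with library totals alone it was 100 higher and 65 lower. The groups did not overlap in 31.4% of the genes tested, and KO lay wholly below fl/fl in 16.7%. Col6a3 was the 1 member tested, and these shares are the background to its call. In size, Col6a3 stood 9th from the lowest log2 fold change of 420 genes and 3rd of the 321 genes with a mean of at least 5 CPM, whereas by mean level it ranked 266th from the highest. The limit of 5 CPM is on the mean over both groups, and Aox1, described below, met it only through fl/fl. Over the 420 genes, log2 fold changes had a median of 0.0034 and a median absolute value of 0.12. The median depends on the scaling, which was estimated on these genes, and was 0.055 with upper-quartile scaling.

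**Figure D1:**
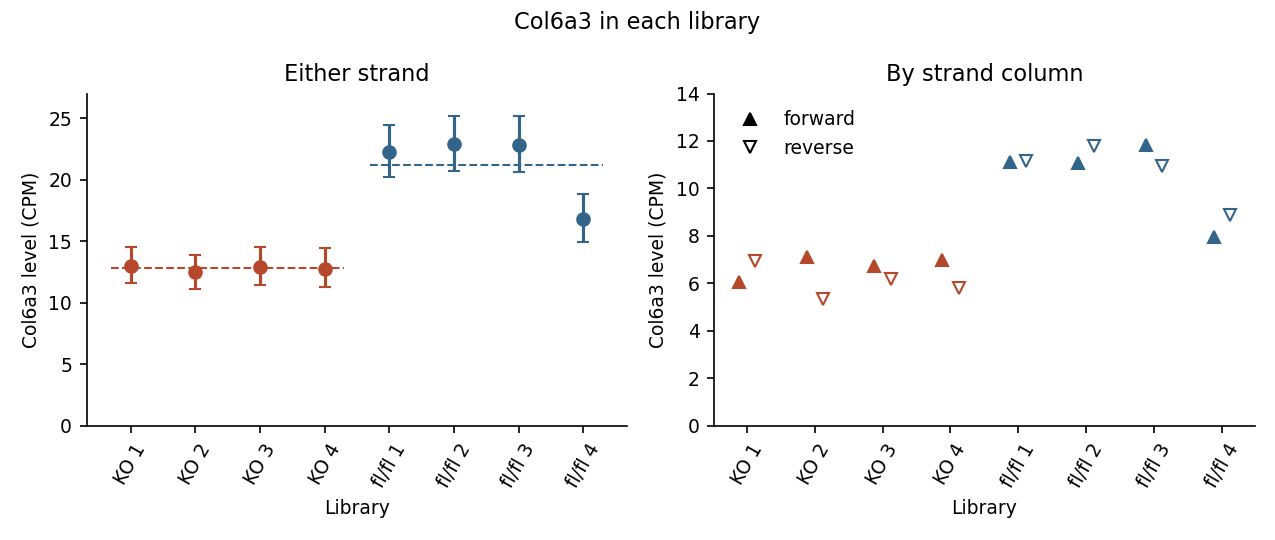
Col6a3 level (CPM) in each library, KO left and fl/fl right, counted on either strand (left panel, bars are exact Poisson 95% intervals for counting error, dashed lines are group means) and in the forward and reverse strand columns (right panel). The 4 KO libraries sit between 12.47 and 13.01 CPM, and fl/fl replicate 4, at 16.83 CPM, sits between them and the other fl/fl libraries.

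The SD of Col6a3 was smaller in KO than in fl/fl, a difference that was not tested. Counting error alone gave exact Poisson 95% intervals of 11.24 to 14.46 CPM for KO replicate 4, the library with the fewest reads, and 14.96 to 18.86 CPM for fl/fl replicate 4. The highest upper bound of a KO library was 14.56 CPM, below the lowest bound of a fl/fl library, and the intervals cover counting error only. The SD was 1.85% of the mean in KO, where counting alone at that depth gives 5.89%, and 13.8% in fl/fl, where counting alone gives 5.13%. Without replicate 4 the fl/fl SD was 1.38% of the mean. The spread within fl/fl was therefore carried by 1 library, which was set aside after its value was seen. Within KO, and within fl/fl without that library, the SD was below that of counting alone (5.89% and 4.94%). That difference was not tested.

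Set between the mean of the other fl/fl libraries, 22.6 CPM, and the KO mean, Col6a3 in fl/fl replicate 4 lay 0.590 of the way to KO. Without that library the log2 fold change was -0.83 (SE 0.066, edgeR adjusted p = 2.52e-33), or 43.6% less in KO. The same call was made with it and without it. That library was set aside after its value was seen. The SD of the fl/fl libraries left, 1.38% of the mean, was below that of counting alone (4.94%). The lower p-value without it is therefore not stronger support.

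Reads on Col6a3 fell on both strands about equally, although the library kit is named as stranded. The forward column held 46.5% to 57.2% of the Col6a3 reads in KO and 47.3% to 52.0% in fl/fl, and this share did not separate the groups (two-sided exact permutation p = 0.257). The forward-strand level was 6.73 ± 0.476 CPM in KO and 10.5 ± 1.73 CPM in fl/fl, and the reverse-strand level 6.06 ± 0.683 CPM in KO and 10.7 ± 1.27 CPM in fl/fl (SD, n = 4 each). In each strand column taken alone, the KO libraries all lay below the fl/fl libraries. The fit gave log2 fold changes of -0.64 (SE 0.10) on the forward column and -0.82 (SE 0.094) on the reverse column. In GENCODE M21, the annotation used for symbols, 1 other gene lies within Col6a3, the predicted gene Gm36970, which shares 0 exonic bases with it and had 10 reads over the 8 libraries.

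Other collagen genes in the rows were few. Of the 77 genes in 7 lists of collagens, collagen VI receptors, matrix partners and secretion factors, 6 were in the rows and 3 were tested, of which 2 fell, where 19.3% of all genes tested were called lower. The lists of transmembrane collagens, collagen VI receptors, matrix partners of collagens VI, XII and XIV, and secretion and processing factors had 0 genes in the rows. Both genes that fell were fibrillar collagens, the rod-like collagens that carry tensile load in scar tissue. Their list median of -0.17 stands beside 0.0034 over all genes, both with TMM scaling. Col3a1, the chain of collagen III, averaged 439.1 ± 0.801 CPM in KO and 485.2 ± 16.3 CPM in fl/fl (log2 fold change -0.14, SE 0.024, edgeR adjusted p = 2.04e-05). Col5a2, a chain of the fibril-nucleating collagen V, averaged 589.5 ± 5.02 CPM in KO and 673.0 ± 6.82 CPM in fl/fl (log2 fold change -0.19, SE 0.021, edgeR adjusted p = 2.56e-08). In both genes the KO libraries lay below the fl/fl libraries, as for Col6a3. Col3a1 shares exonic bases with the predicted gene Gm47302 on the same strand, which makes its count uncertain.

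The remaining collagens were barely detected. Col4a4, a chain of basement membrane collagen IV, had 40 reads in KO and 41 in fl/fl and did not pass the test (log2 fold change -0.36, SE 0.37, edgeR adjusted p = 0.470). Its partner chain Col4a3 had 14 reads in KO and 23 in fl/fl, below the filter on low counts. Col9a1 and Col19a1, fibril-associated collagens like the unmeasured Col12a1, Col14a1 and Col16a1, had 1 and 0 reads over the 8 libraries. A count of 0 allows up to about 3 reads, as an upper Poisson bound at 95%. Col4a3, Col9a1 and Col19a1 were not tested, and the SE of Col4a4 leaves small differences out of reach. Large differences could be called at such levels. Gpr35, at 0.268 CPM in KO and 1.03 CPM in fl/fl, passed (edgeR adjusted p = 4.44e-05).

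**Figure D2:**
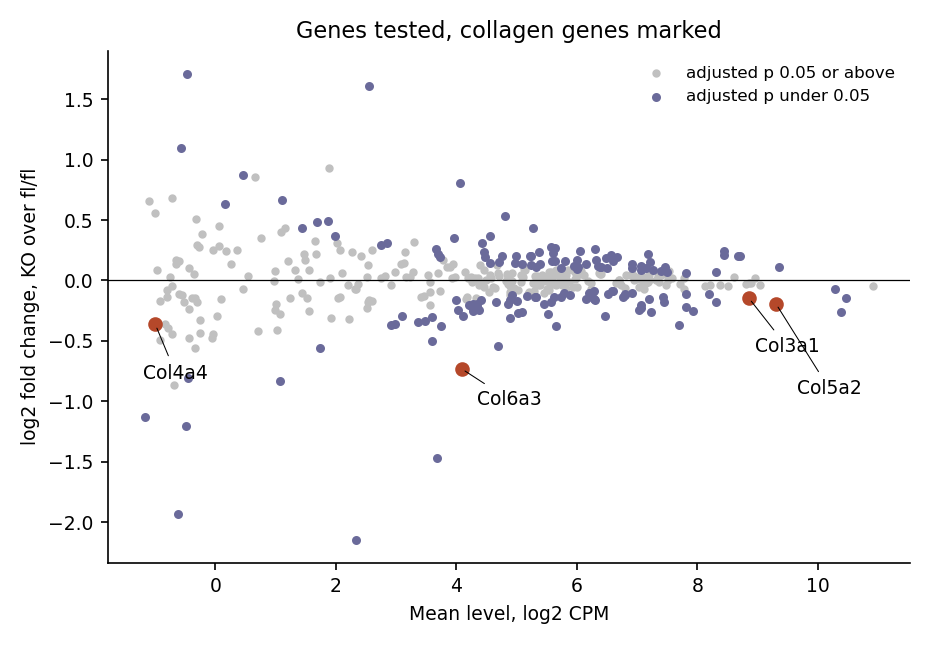
Each point is 1 of the 420 genes tested, with mean level (log2 CPM) on the x axis and log2 fold change of KO over fl/fl on the y axis. Col6a3, at -0.73, lies below Col3a1 and Col5a2, which are far more abundant, and Col4a4 lies at the low end of expression among genes that did not pass.

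Per kilobase of annotated exon, Col6a3 was the third of the 7 collagen genes in the rows by mean level in either genotype. It stood at 1.07 ± 0.0197 CPM per kb in KO and 1.77 ± 0.244 in fl/fl, over 11.96 kb of merged exons in GENCODE M21. Col3a1 stood at 44.7 CPM per kb in KO and 49.4 in fl/fl, and Col5a2 at 61.5 in KO and 70.2 in fl/fl. The other 4 collagen genes lay far below it, the highest being Col4a4 at 0.0411 CPM per kb in KO and 0.0535 in fl/fl. The exon lengths are those of GENCODE M21 and may differ from the annotation behind the counts.

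Whether Col6a3 was lowered more than the fibrillar collagens was tested within each library, where a ratio of 2 genes does not depend on library size or scaling. For every 100 Col3a1 reads there were 2.970, 2.838, 2.937 and 2.909 Col6a3 reads in the KO libraries, against 4.545, 4.819, 4.501 and 3.578 in the fl/fl libraries. The groups did not overlap, and the mean log2 ratio was lower in KO (difference -0.57, two-sided exact permutation p = 0.0286, 0.0429 adjusted over 3 pairs). For every 100 Col5a2 reads there were 2.17 ± 0.0495 Col6a3 reads in KO and 3.15 ± 0.415 in fl/fl (difference in log2 ratio -0.53, exact permutation p = 0.0286, adjusted p = 0.0429, n = 4 each). With forward-strand counts alone this last difference was -0.42 (exact permutation p = 0.0571). Without fl/fl replicate 4 the differences were -0.67 for Col3a1 and -0.63 for Col5a2, but 3 libraries against 4 cannot give an exact permutation p below 0.0571. Col3a1 reads per 100 Col5a2 reads were 74.5 ± 0.517 in KO and 72.1 ± 1.72 in fl/fl, and the groups overlapped (difference in log2 ratio 0.048, exact permutation p = 0.0857, n = 4 each). These ratios were chosen after the data had been seen, because no second collagen VI chain was in the rows.

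**Figure D3:**
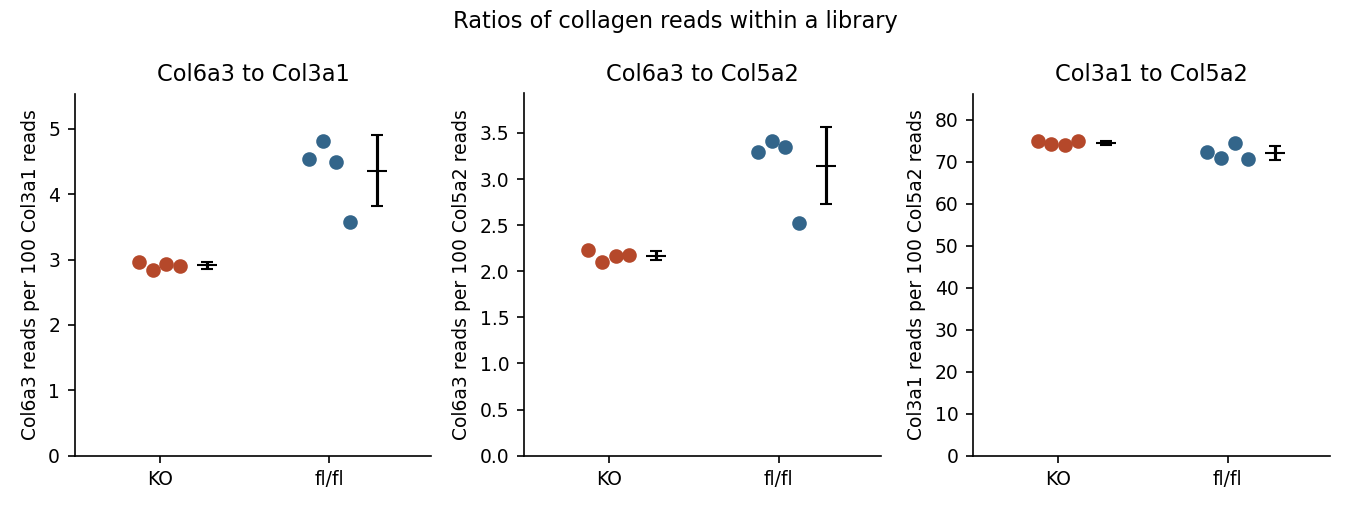
Reads of one collagen gene per 100 reads of another within each library, KO left and fl/fl right, with the mean and SD of 4 libraries beside the points. Col6a3 reads per 100 Col3a1 reads range from 2.838 to 2.970 in KO and from 3.578 to 4.819 in fl/fl, while Col3a1 reads per 100 Col5a2 reads overlap between the groups.

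Portal fibroblasts also make collagen VI, and of 12 listed markers of portal fibroblasts and mesothelium, 2 were in the rows and the others were not analysed here. Dpt, the matrix protein dermatopontin, averaged 6.76 ± 0.0922 CPM in KO and 18.7 ± 2.78 CPM in fl/fl (log2 fold change -1.47, SE 0.094, edgeR adjusted p = 4.21e-11). Cd34, a surface sialomucin of these cells and of endothelium, averaged 84.6 ± 1.83 CPM in KO and 81.6 ± 3.14 CPM in fl/fl and did not pass the test (log2 fold change 0.050, SE 0.033, edgeR adjusted p = 0.245, or 0.0213 with upper-quartile scaling). Cd34 shares exonic bases with the predicted gene Gm16897 on the other strand, so its count is uncertain. Summed, the pair stood at 90.1 to 94.1 CPM in KO and 94.8 to 105.6 CPM in fl/fl. Cd34 made up most of this sum and overlapped between the groups (83.4 to 87.3 CPM in KO, 79.4 to 86.2 CPM in fl/fl). The gap in the sum was therefore that of Dpt and does not describe both markers. Dpt is also expressed by other fibroblasts, and the part of such cells in the Col6a3 result was not tested. The other 8 marker lists, those of hepatocytes, endothelium, macrophages, lymphocytes, cholangiocytes, smooth muscle, activated myofibroblasts and stellate cells, had 0 genes in the rows.

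Likeness to Col6a3 was measured as Pearson's r of log2 CPM over the 8 libraries, among 320 other genes with a mean of at least 5 CPM. The 5 most alike were Prdx6 (r = 0.989), Dpt (0.985), Hspd1 (0.982), Plekhb2 (0.975) and Aox1 (0.974). The 8 libraries fall into the 2 genotypes, and the genes of a library share its depth and scaling. The value of r therefore mostly measures the step between the groups and the place of fl/fl replicate 4, and it is given as a description. Col5a2 came 14th (0.952) and Col3a1 19th (0.946). The sizes of the step differed widely within this set. Prdx6, a peroxiredoxin, stood at 180.5 ± 3.31 CPM in KO and 232.7 ± 17.2 CPM in fl/fl, and Plekhb2, a membrane-trafficking protein of recycling endosomes, at 119.1 ± 3.58 CPM in KO and 141.2 ± 5.78 CPM in fl/fl (SD, n = 4 each). Hspd1, the mitochondrial chaperonin HSP60, stood at 1213 ± 19.6 CPM in KO and 1451 ± 44.0 CPM in fl/fl, and it shares exonic bases with Hspe1 on the other strand, which makes its count uncertain. Aox1, an aldehyde oxidase, stood at 1.83 ± 0.291 CPM in KO and 8.21 ± 1.64 CPM in fl/fl. It met the limit of 5 CPM only through its fl/fl level, so its step is not independent of its place in this set. In each of the 5 genes the lowest fl/fl library was replicate 4, as in Col6a3.

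**Figure D4:**
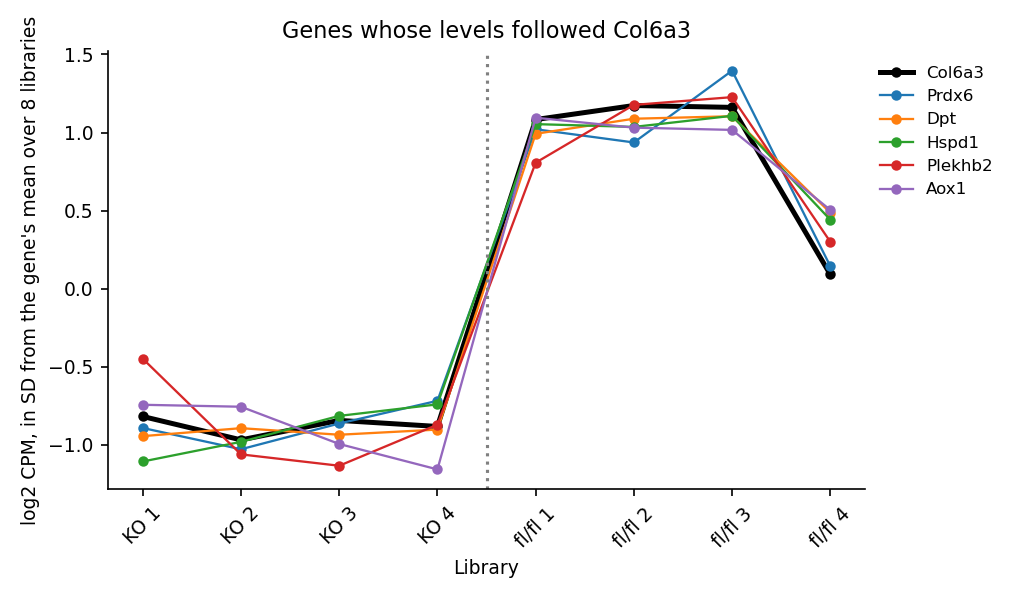
log2 CPM of Col6a3 (black) and the 5 genes most like it, each in SD from its own mean over 8 libraries, KO libraries left of the dotted line and fl/fl libraries right of it. The 6 genes are low in all 4 KO libraries and high in fl/fl replicates 1 to 3, and fl/fl replicate 4 lies between, while their order among KO libraries differs.

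Most tested neighbours of Col6a3 on chromosome 1 did not pass the test, and neither did most of all genes tested. In GENCODE M21 (GRCm38), 40 genes of the rows lie within 1000 kb of Col6a3, and 12 of them were tested. Of these, 2 rose and 1 fell, against 37.6% of all genes tested, and the median log2 fold change was 0.041. The nearest tested neighbours lie on either side of the gene. Cops8, a subunit of the COP9 signalosome, 152.6 kb away, stood at 135.1 ± 1.11 CPM in KO and 137.9 ± 3.06 CPM in fl/fl (log2 fold change -0.030, SE 0.027, edgeR adjusted p = 0.415). Lrrfip1, which encodes a nucleic acid-binding protein, 154.8 kb away, stood at 139.8 ± 2.29 CPM in KO and 137.3 ± 6.18 CPM in fl/fl (log2 fold change 0.027, SE 0.030, edgeR adjusted p = 0.518, or 0.0419 with upper-quartile scaling). Those that passed were the GTPase-activating protein gene Agap1 (log2 fold change 0.16), the selenocysteine lyase gene Scly (0.22) and the circadian clock gene Per2 (-0.36), with edgeR adjusted p-values of 0.00220, 0.0308 and 0.00329. The groups overlapped in Scly, whose call was lost with DESeq2, with counts of 1 strand column and without any 1 of 5 libraries (KO replicates 1 and 2 and fl/fl replicates 1, 2 and 3, adjusted p 0.0614 to 0.146). Per2 did not pass when only the reverse column was counted (edgeR adjusted p = 0.0821). The window of 1000 kb was chosen after the data had been seen.

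**Figure D5:**
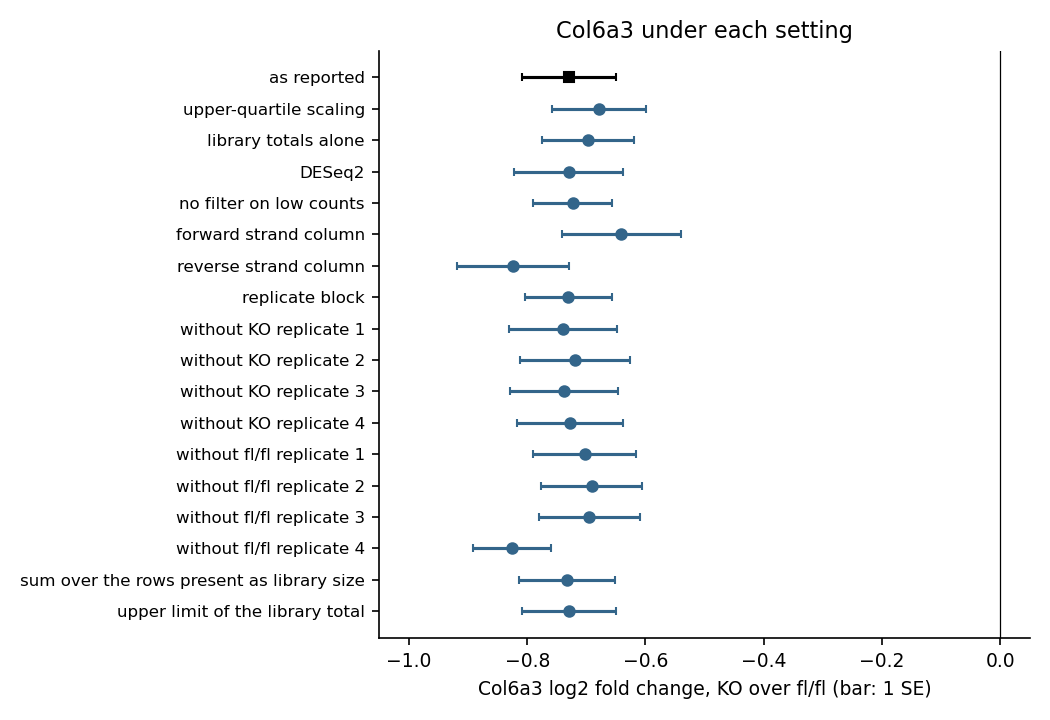
Log2 fold change of Col6a3, KO over fl/fl, with 1 SE, as reported and under 17 other settings. The values run from -0.83 without fl/fl replicate 4 to -0.64 with forward-strand counts, and none reaches 0.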

How the data were processed

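For every library the authors deposited a STAR gene table of raw counts, with either-strand, forward and reverse columns. The builds GRCm38 and GRCm39 and the tools STAR 2.7.10a, fastp and DESeq2 1.38.0 are listed, per the submitters' processing notes, without roles; the sources used here do not give the annotation counted. As used here, the tables held 1933 to 1943 complete gene rows; an unfinished final line was dropped from 7. The 1933 shared rows hold 3.20% to 3.28% of gene-assigned reads; the 1830 with an entry in GENCODE M21 all lie on chromosome 1. Library totals were derived from the summary rows (from the no-feature reads of both stranded columns together, the either-strand no-feature reads were subtracted 2 times and the ambiguous reads of both stranded columns 1 time), a lower limit; the upper one is 2.51% to 2.65% larger. Reads with no gene (no feature, 3.93% to 4.34%; ambiguous, 5.62% to 5.81%) stayed out.

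Either-strand counts were tested in edgeR 4.0.16 (R 4.3.3): filterByExpr kept 420 genes, followed by TMM scaling, the robust quasi-likelihood F test and Benjamini-Hochberg adjustment over 420 genes at 0.05. On simulated counts this recovered 62% of 1.1-fold and 100% of 2-fold changes, with 5 false calls among 217 unchanged genes. The simulation gave all genes the same dispersion and set no library apart, so it cannot show how a library like fl/fl replicate 4 affects the calls. SE was taken from the F statistic. No 2 libraries of a group agreed within sampling noise (chi-square p at most 3.68e-07 in KO and 2.11e-07 in fl/fl). The spread between replicates beyond counting error, as fitted over the genes tested, was small (common biological coefficient of variation 2.53%). Whether it stems from mice or from technical steps was not tested. Members, lists and tests were chosen with earlier results of these data known. Named were all members, list genes past the threshold and the 5 genes most like Col6a3; others were picked after their values were seen. DESeq2 1.42.0, other scalings, filters and count columns, a replicate block and leaving out each library were the alternatives.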

Additional observations from a re-analysis of the deposited data

Results flagged for a closer look

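A library is listed here where its distance from the closest library of its group of 4, as a share of the group's range, passed Dixon's 95% critical value. Chance does so in about 1 in 20 groups, and 5 of 32 groups had such a library here. The groups are not independent, since a library that lies apart does so in many genes. The ratio holds the Col6a3 count itself, and the genes most like Col6a3 were picked by their likeness over these libraries. The 5 of 32 can therefore not be set against the 1 in 20. Of the 5, 4 concern fl/fl replicate 4. Col6a3 stood there at 16.83 CPM, while fl/fl replicates 1 to 3 held 22.28 to 22.86 CPM (a distance of 0.905 of the range). Col6a3 reads per 100 Col5a2 reads were 2.528 there, against 3.291 to 3.416 (0.858). Of the genes most like Col6a3, Hspd1 stood at 1385 CPM against 1469 to 1479 (0.890) and Aox1 at 5.781 CPM against 8.788 to 9.365 (0.839). The other library was fl/fl replicate 1, whose total of 19663030 reads stood against 17619387 to 17642249.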

How the results depend on the processing

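The log2 fold change of Col6a3 kept its direction and its call under all 17 alternatives, from -0.83 to -0.69 leaving out each library in turn and from -0.82 to -0.64 otherwise (adjusted p from 2.52e-33, without fl/fl replicate 4, to 1.79e-05). The data had been seen when the upper limit of the library total, the ratios and the neighbour window were added. The number of genes called, 158, ranged from 132 to 191 leaving out each library and from 120 to 172 under the other alternatives. At the stricter threshold of an adjusted p under 0.01, 108 passed. Col3a1 and Col5a2 kept their calls throughout. The Col6a3 to Col3a1 difference in log2 ratio ran from -0.67 to -0.52 and the Col6a3 to Col5a2 difference from -0.63 to -0.48 leaving out each library, where 3 against 4 cannot give an exact permutation p below 0.0571; Col6a3 to Col5a2 gave -0.42 with forward-strand counts (p = 0.0571, cause not tested). With the replicate block, Col6a3 was at -0.73 (adjusted p = 3.11e-08) and 150 genes passed. Same-numbered libraries correlated from -0.103 to 0.0661, so the numbers were not taken to pair them, and not every library correlated best with its own number. Ratios of collagen VI chains were not run, since 1 chain was in the rows. Of the neighbours, Cops8 changed sign with upper-quartile scaling (0.021) and library totals alone (0.0024) and was called under neither; the cause was not tested. Depth limits Col4a3, Col4a4, Col9a1 and Col19a1.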
